A study of Mus musculus with 2 samples.

Results

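The cells described here are tumour-infiltrating regulatory T cells (Tregs) that carry RNA for ST2, the receptor of the cytokine interleukin-33 (IL-33), which is encoded by Il1rl1. They were chosen by their own counts of unique molecular identifiers (UMIs, 1 per captured RNA molecule). A droplet barcode was kept where 500 or more genes were detected and less than 10% of its UMIs were mitochondrial. It counted as a Treg with at least 2 UMIs of Cd3d, Cd3e and Cd3g together, at least 6 of Foxp3, Il2ra, Ikzf2 and Ctla4 together, at most 1 of Cd8a and Cd8b1, and at most 3 of Lyz2, C1qa and C1qb. An Il1rl1 Treg was such a cell with at least 2 UMIs of Il1rl1 and 0 UMIs of Mki67, Top2a, Il10 and Ccr8. These conditions held for 415 of the 8010 deposited barcodes, 256 in the cKO library and 159 in the WT library.

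The study set Tregs from tumours of mice with the genotype JMJD1CTregcKO (cKO, a deletion of the histone demethylase gene Jmjd1c in Tregs) beside those of JMJD1CWT mice (WT), all C57BL/6 and 8 to 12 weeks old, with 1 droplet library of transcript 3′ ends for each genotype. Tumours were digested, lymphocytes were separated on Percoll, and Tregs were selected with magnetic beads and then sorted by fluorescence. The labels name neither the tumour nor the Cre line, the deleted exons, or how many animals of which sex were pooled. With 1 library for each genotype there was no replicate check of any difference between genotypes, no p-value was computed, and all intervals are 95% intervals that cover counting error only.

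The cKO library held 37666195 UMIs in 4105 barcodes and the WT library 49063944 UMIs in 3905, and 2 barcodes occurred in both. Xist was at 0 and 939 CPM (UMIs of the gene per 1000000 UMIs of the summed cells) in cKO and WT Il1rl1 Tregs, and Ddx3y, a gene of the Y chromosome, at 97.2 and 0 CPM, so the sex of the animals and the genotype cannot be told apart. Jmjd1c itself was counted at 77.4 CPM (65.4 to 90.9) in cKO Il1rl1 Tregs and 100.9 CPM (85.3 to 118) in WT ones. Without the deleted exons, it is not known whether the counted 3′ ends lie inside them, so these levels were not used as a check of the deletion.

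ST2 pairs with the accessory protein encoded by Il1rap and signals through MyD88 and IRAK kinases to NF-kB and MAP kinases when IL-33, an alarm signal released by damaged tissue, is bound. Tregs that carry ST2 are known from skin, fat, gut and muscle, where they depend on the transcription factors GATA3 and BATF and release amphiregulin (Areg), a growth factor that acts on epithelium. GATA3 is also the defining factor of type 2 helper T cells, and in T cells it takes part in the transcription of Il1rl1.

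The promoters of the receptor genes, of Batf and of Nfkbia are shown, each of which holds at least 1 of the motifs named next. Those of Gata3 and Areg were searched too, held none and are not printed. The sequences are the 250 bases before each RefSeq start site on GRCm38.p6, read on the gene's strand from 5′ to 3′, and capitals mark the letters GATAA (GATA factors), TGANTCA (AP-1 factors, which BATF joins) or GGGA, any base, TTTCC (NF-kB) on either strand. Il1rl1 has 2 start sites in RefSeq, a distal one with its window at chr1:40429320-40429569 (+) and a proximal one at chr1:40439379-40439628 (+). The other windows lie at chr1:40515112-40515361 (+) for Il18rap, chr12:85686470-85686719 (+) for Batf, chr9:114496545-114496794 (-) for Ccr4 and chr12:55492648-55492897 (-) for Nfkbia.
Il1rl1, distal start: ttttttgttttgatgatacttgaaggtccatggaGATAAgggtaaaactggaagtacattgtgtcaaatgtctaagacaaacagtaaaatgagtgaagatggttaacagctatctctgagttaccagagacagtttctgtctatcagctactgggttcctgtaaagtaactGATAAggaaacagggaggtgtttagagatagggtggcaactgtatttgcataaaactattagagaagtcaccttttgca
Il1rl1, proximal start: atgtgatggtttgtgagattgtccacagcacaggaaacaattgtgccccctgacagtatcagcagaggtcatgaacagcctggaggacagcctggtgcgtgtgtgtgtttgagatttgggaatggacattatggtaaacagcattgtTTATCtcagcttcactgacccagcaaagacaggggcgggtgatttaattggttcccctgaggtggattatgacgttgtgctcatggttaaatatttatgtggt
Il18rap: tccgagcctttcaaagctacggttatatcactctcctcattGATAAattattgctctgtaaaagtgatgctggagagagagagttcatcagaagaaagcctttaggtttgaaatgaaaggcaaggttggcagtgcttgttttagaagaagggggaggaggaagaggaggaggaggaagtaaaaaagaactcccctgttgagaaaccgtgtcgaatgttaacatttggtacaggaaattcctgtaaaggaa
Batf: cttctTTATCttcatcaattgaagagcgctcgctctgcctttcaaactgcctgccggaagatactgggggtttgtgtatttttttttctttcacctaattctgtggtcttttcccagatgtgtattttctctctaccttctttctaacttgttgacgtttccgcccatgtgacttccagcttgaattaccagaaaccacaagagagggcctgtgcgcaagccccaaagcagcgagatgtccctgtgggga
Ccr4: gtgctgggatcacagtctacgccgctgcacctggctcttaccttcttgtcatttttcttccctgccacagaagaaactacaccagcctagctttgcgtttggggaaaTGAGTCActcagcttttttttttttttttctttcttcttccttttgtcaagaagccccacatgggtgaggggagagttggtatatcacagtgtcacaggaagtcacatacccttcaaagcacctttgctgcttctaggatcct
Nfkbia: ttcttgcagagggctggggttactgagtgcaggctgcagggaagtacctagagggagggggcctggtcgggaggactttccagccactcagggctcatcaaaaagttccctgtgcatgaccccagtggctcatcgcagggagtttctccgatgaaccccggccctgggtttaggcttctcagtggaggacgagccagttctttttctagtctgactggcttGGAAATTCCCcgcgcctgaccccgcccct

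The distal Il1rl1 window held GATAA 2 times and the proximal one once, on the other strand. Batf and Il18rap had 1 GATAA each, Ccr4 1 TGANTCA and Nfkbia 1 NF-kB motif, while the windows of Gata3 and Areg held none of the 3 motifs. Of all 32851 RefSeq promoters, 22.6% held GATAA, 6.75% TGANTCA and 0.356% the NF-kB motif. Of the 5154 promoters of the genes compared further on, 14.5% held GATAA. The share was 17.2% of 64 promoters of genes 1.5-fold higher in both libraries and 14.8% of 27 of those lower. For TGANTCA these 3 shares were 4.27%, 9.38% and 7.41%, and for the NF-kB motif 0.388%, 1.56% and 0%. No difference between these shares was tested. A match is a stretch of letters, and 3′ counts do not tell which Il1rl1 start was used.

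Il1rl1 Tregs were a minority in both libraries and a larger share in the cKO library. They made up 8.98% of 2852 gated Tregs in the cKO library (7.95 to 10.1%, Clopper-Pearson) and 4.91% of 3241 in the WT library (4.19 to 5.71%). Among gated Tregs without UMIs of Mki67, Top2a, Il10 and Ccr8 the shares were 18.4% of 1388 cKO cells (16.4 to 20.6%) and 10.2% of 1564 WT cells (8.71 to 11.8%). The cKO library was the shallower one, with a median of 6431 UMIs per gated Treg against 8544 in WT, and after each cell was thinned to 4000 UMIs the shares of gated Tregs were 8.44% in cKO (205 of 2430) and 3.85% in WT (114 of 2961). In macrophages, taken as a comparison and chosen to have no Cd3d, Cd3e or Cd3g UMI, 0 of 177 cKO and 0 of 33 WT cells had at least 2 UMIs of Il1rl1. The exact intervals of these shares reach 2.06% and 10.6%. At least 1 UMI was present in 4 of 177 cKO and 0 of 33 WT macrophages. CD8 T cells did hold Il1rl1, with 2 or more UMIs in 36 of 402 cKO cells (8.96%) and 26 of 196 WT cells (13.3%).

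The cells left out by the rule also carried Il1rl1. Over all gated Tregs, 539 cKO cells (18.9%) and 328 WT cells (10.1%) had at least 2 UMIs. Within Tregs that had UMIs of the division genes Mki67 or Top2a the share was 23.2% in cKO and 10.9% in WT, within Tregs with Il10 UMIs 14.1% in cKO and 6.09% in WT, and within Tregs with Ccr8 UMIs 21.9% in cKO and 13.4% in WT. Those classes differed in size between the libraries. Il10 UMIs were present in 27.3% of cKO and 8.61% of WT gated Tregs, division genes in 28.1% and 39.5%, and Ccr8 in 9.47% and 14.3%.

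The level of Il1rl1 within the members is largely set by the threshold of 2 UMIs and by depth and is given as a description. Il1rl1 (ENSMUSG00000026069, chromosome 1, 40429570 to 40465415) was at 538.5 CPM (506 to 572) in cKO and 512 CPM (476 to 549.8) in WT cells, a ratio of 1.05 (0.957 to 1.16). The median cell had 3 UMIs in cKO and 4 in WT, and the highest had 17 in cKO and 30 in WT. Just inside the threshold stood 84 cKO and 45 WT cells with exactly 2 UMIs, and just outside it 143 cKO and 104 WT cells with 1.

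**Figure D1:**
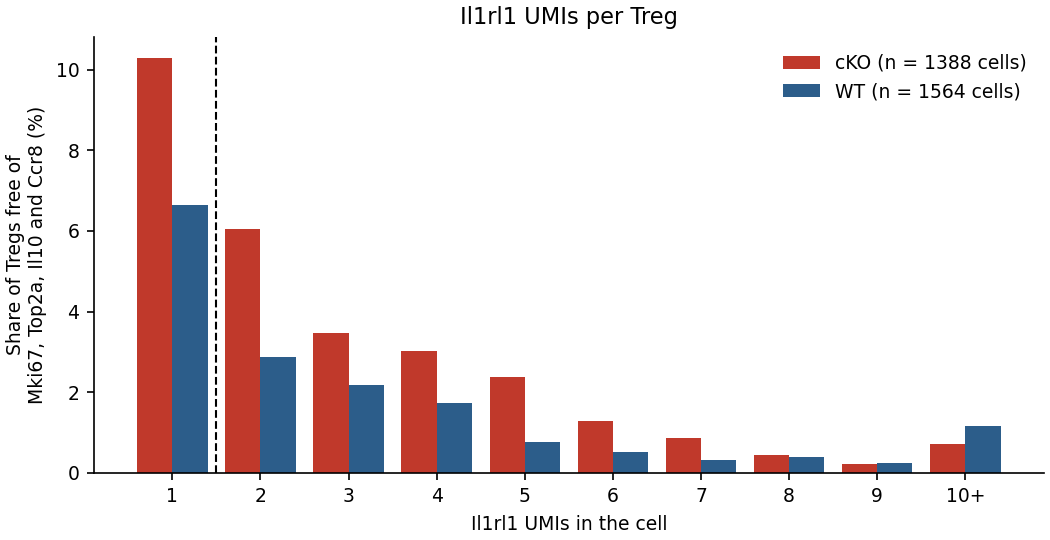
Share of Tregs without Mki67, Top2a, Il10 and Ccr8 UMIs (vertical axis, percent) by the number of Il1rl1 UMIs in the cell (horizontal axis), for 1388 cKO and 1564 WT cells. Cells with 0 UMIs (71.3% of cKO, 83.2% of WT) are not drawn, the dashed line marks the threshold of 2 UMIs, and the cKO bars are higher than the WT bars from 1 to 8 UMIs.

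Other cells that carry ST2 were looked for by their markers, some of which had no UMI while others were present and higher than in matched Tregs. Of 8 mast cell markers, Cpa3, Mcpt4, Cma1, Tpsb2, Fcer1a and Ms4a2 had no UMI in Il1rl1 Tregs of either library, while Kit was at 5.75 CPM in Il1rl1 Tregs and 8.38 CPM in matched Tregs in cKO and at 11.5 and 6.10 CPM in WT. Of 6 basophil markers, Mcpt8, Cd200r3 and Prss34 were also at 0, as were Siglecf, Epx, Prg2 and Alox15 of 5 eosinophil markers. The other basophil marker with UMIs, Il4, was at 1.57 CPM in Il1rl1 Tregs and 0 in matched Tregs in cKO and at 2.71 and 0 CPM in WT, and the eosinophil marker Ccr3 at 11.5 and 9.43 CPM in cKO and at 5.42 and 1.36 CPM in WT.

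The lists of type 2 lymphocytes were higher in Il1rl1 Tregs than in matched Tregs of both libraries. The 7 markers of group 2 innate lymphoid cells summed to 264.5 CPM (242 to 289) in Il1rl1 Tregs and 189 CPM (170 to 210) in matched Tregs in cKO, and to 244 CPM (219 to 270) and 114 CPM (97.3 to 132) in WT. Klrg1, which ST2 Tregs also express, gave 490 of the 506 UMIs of that list in cKO and 317 of the 360 in WT Il1rl1 Tregs, and Hs3st1 was at 0 in all 4 groups of cells. The 5 markers of conventional type 2 helper cells summed to 47.6 CPM (38.3 to 58.4) in Il1rl1 Tregs and 16.8 CPM (11.5 to 23.7) in matched Tregs in cKO, and to 65.7 CPM (53.3 to 80.1) and 18.3 CPM (12.1 to 26.6) in WT. Ccr4 gave most of these UMIs, and in WT Il1rl1 Tregs Il5 and Il13 held 16 and 20 UMIs. The Il5 UMIs came from 6 cells and the Il13 UMIs from 3, with 75% of the latter in 1 cell. At least 2 of the list's markers were present in 2 of 256 cKO and 4 of 159 WT Il1rl1 Tregs, and in 0 matched Tregs of either library. The part of such cells in the results was not tested. Tnfrsf18 and Ikzf4, the Treg markers that the gate did not use, together had 2176 CPM in cKO Il1rl1 Tregs and 1982 CPM in WT ones. At least 1 UMI was in every cell. Matched Tregs had 1720 CPM in cKO and 1758 CPM in WT, with a UMI in 99.6% and 100% of cells. Tnfrsf18 gave 3507 of the 4163 UMIs in cKO and 2637 of the 2927 in WT Il1rl1 Tregs. Both markers were present in 190 of 256 cKO and 113 of 159 WT Il1rl1 Tregs. Of the other 3 marker genes given for these cells, Gata3 and Batf were higher than in matched Tregs in both libraries and Areg in the cKO library alone, as set out next.

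Each Il1rl1 Treg was set beside a Treg of the same library that met every other condition but had 0 UMIs of Il1rl1, matched on total UMIs (median 6351 against 6347 UMIs in cKO and 7983 against 7984 in WT). Of 5030 genes averaging 20 CPM or more over the 4 groups of cells, 70 (1.39%) were at least 1.5-fold higher in Il1rl1 Tregs in both libraries and 30 (0.596%) at least 1.5-fold lower in both, on the scale log2((CPM of Il1rl1 Tregs + 5)/(CPM of matched Tregs + 5)). The 70 include Il1rl1, which the rule sets to 0 in matched Tregs, and the gate gene Il2ra. In all, 3 of the 70 and 4 of the 30 are of kinds left out of the rankings below. In a single library the shares were 2.49% higher and 2.21% lower in cKO, and 3.8% higher and 4.31% lower in WT. The median log2 ratio of all genes was -0.02 in each library. The 12 highest genes, ordered by the smaller of their 2 ratios, were Dgat2, Ednrb, Il18rap, Batf, Ikbke, Lpcat1, Gata3, Ccr4, Acod1, Hk2, Gadd45g and Cd83. The 12 lowest were Spp1, Ifitm1, Hspa1b, Hspa1a, Evi2a, Jun, Bcl2l11, Klrc1, Nkg7, Ccl5, Ddhd2 and Lag3.

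**Figure D2:**
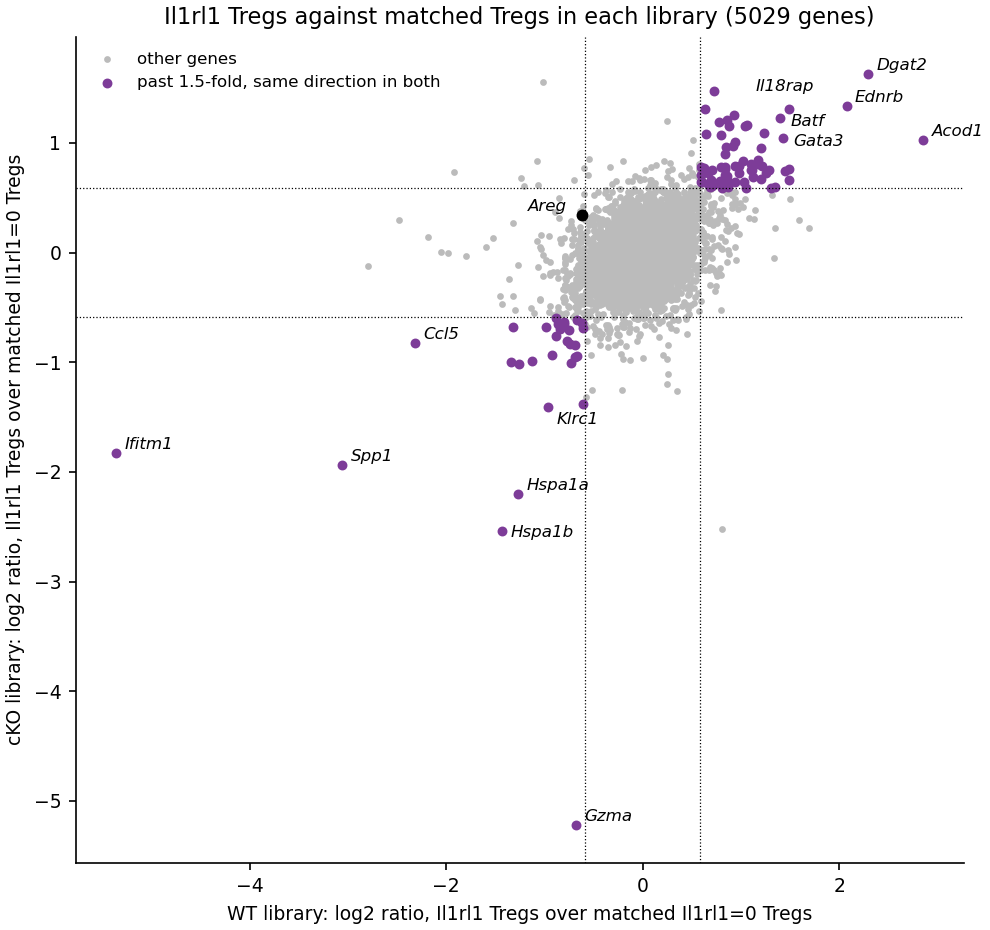
Log2 ratio of Il1rl1 Tregs over matched Il1rl1=0 Tregs in the WT library (horizontal axis) and the cKO library (vertical axis), 1 point for each gene averaging 20 CPM or more, without Il1rl1. Dotted lines mark 1.5-fold, purple points are past it in the same direction in both libraries, and Areg (black) is above 0 in cKO (0.34) and below 0 in WT (-0.62).

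The transcription factor genes Gata3, Batf, Irf4 and Rora were higher in Il1rl1 Tregs of both libraries. Gata3 (chromosome 2, 9857078 to 9890034) was at 589.7 CPM in Il1rl1 Tregs and 283 CPM in matched Tregs of the cKO library, a ratio of 2.08 (1.88 to 2.31). In the WT library it was at 479 CPM in Il1rl1 Tregs and 175 CPM in matched Tregs, a ratio of 2.74 (2.37 to 3.17). The intervals of Il1rl1 and matched Tregs did not overlap in either library. After thinning to 4000 UMIs, Gata3 was detected in 79.4% of Il1rl1 Tregs and 51.9% of matched Tregs in cKO, and in 75.2% and 40.8% in WT. Macrophages, thinned alike, had it in 1.16% of cKO and 0 of 32 WT cells. Without thinning the shares were 91.4% and 65.2% in cKO and 91.2% and 61.6% in WT.

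Batf, the AP-1 family factor that ST2 Tregs depend on in mouse tissues (chromosome 12, 85686669 to 85709087), was at 595 CPM in Il1rl1 Tregs and 251 CPM in matched Tregs in cKO, a ratio of 2.37 (2.13 to 2.64). In WT it was at 353 CPM in Il1rl1 Tregs and 131 CPM in matched Tregs, a ratio of 2.70 (2.28 to 3.20). Both groups of cells thus had more Batf RNA in the cKO than in the WT library. Batf was detected in 72.5% of Il1rl1 Tregs and 49.8% of matched Tregs in cKO and in 61.8% and 31.2% in WT after thinning, and in 9.30% of cKO and 9.38% of WT macrophages. Cells with UMIs of both Gata3 and Batf made up 58.4% of Il1rl1 Tregs and 31.3% of matched Tregs in cKO, and 47.1% and 13.4% in WT. Irf4, which binds DNA together with BATF, had a ratio of 2.73 (1.67 to 4.62) in cKO and 2.15 (1.24 to 3.86) in WT from low counts of 32.9 and 29.1 CPM in Il1rl1 Tregs. Rora, a nuclear receptor of tissue lymphocytes, had ratios of 1.53 in cKO and 1.63 in WT.

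Of 24 listed tissue-repair Treg genes 19 could be measured, and 6 of these were higher in both libraries (Batf, Dgat2, Gata3, Irf4, Itgae and Rora) and 0 lower, beside 1.39% and 0.596% of all genes. The list's median log2 ratio was 0.46 in cKO and 0.29 in WT. The list holds 3 of the marker genes, so part of that count repeats them. Dgat2, which makes the last step of triglyceride synthesis, was at 166 CPM in Il1rl1 Tregs and 50.3 CPM in matched Tregs in cKO, a ratio of 3.295 (2.62 to 4.18). In WT it was at 123 CPM in Il1rl1 Tregs and 21.0 CPM in matched Tregs, a ratio of 5.84 (3.97 to 8.84). Dgat2 was detected in 36.5% of Il1rl1 Tregs and 13.7% of matched Tregs in cKO, and in 34.4% and 10.2% in WT after thinning, against 5.81% of cKO and 3.12% of WT macrophages. Itgae, the integrin chain that holds T cells to epithelial E-cadherin, was at 112 CPM in Il1rl1 Tregs and 66.0 CPM in matched Tregs in cKO, and at 73.1 and 27.8 CPM in WT. Klrg1, a receptor of differentiated tissue Tregs, passed 1.5-fold in WT (ratio 2.03) and not in cKO (1.38). Pparg, the factor of fat-tissue Tregs, stayed under the 20 CPM limit, with 2.61 CPM in cKO and 15.6 CPM in WT Il1rl1 Tregs.

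Areg went apart between the libraries. It was at 1199.9 CPM in Il1rl1 Tregs and 947 CPM in matched Tregs in cKO, a ratio of 1.27 (1.19 to 1.35), and at 1018 CPM in Il1rl1 Tregs and 1566 CPM in matched Tregs in WT, a ratio of 0.65 (0.608 to 0.694). After thinning, 59.2% of Il1rl1 Tregs and 45.5% of matched Tregs in cKO, and 62.4% and 50.3% in WT, had an Areg UMI, against 8.72% of cKO and 9.38% of WT macrophages. In WT the share of cells and the summed level thus ran in opposite directions, and no order is read from the shares there. The upper quartile cell had 10.8 Areg UMIs per 10000 in WT Il1rl1 Tregs and 19.5 in WT matched Tregs, while the median cell had 3.12 and 2.03. When cells with any UMI of Lyz2, C1qa, C1qb, Cd8a or Cd8b1 were left out, the WT log2 ratio moved to -0.22, against -0.62 with them. Penk, which encodes the opioid precursor proenkephalin made by tissue Tregs, had ratios of 1.39 in cKO and 1.55 in WT.

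**Figure D3:**
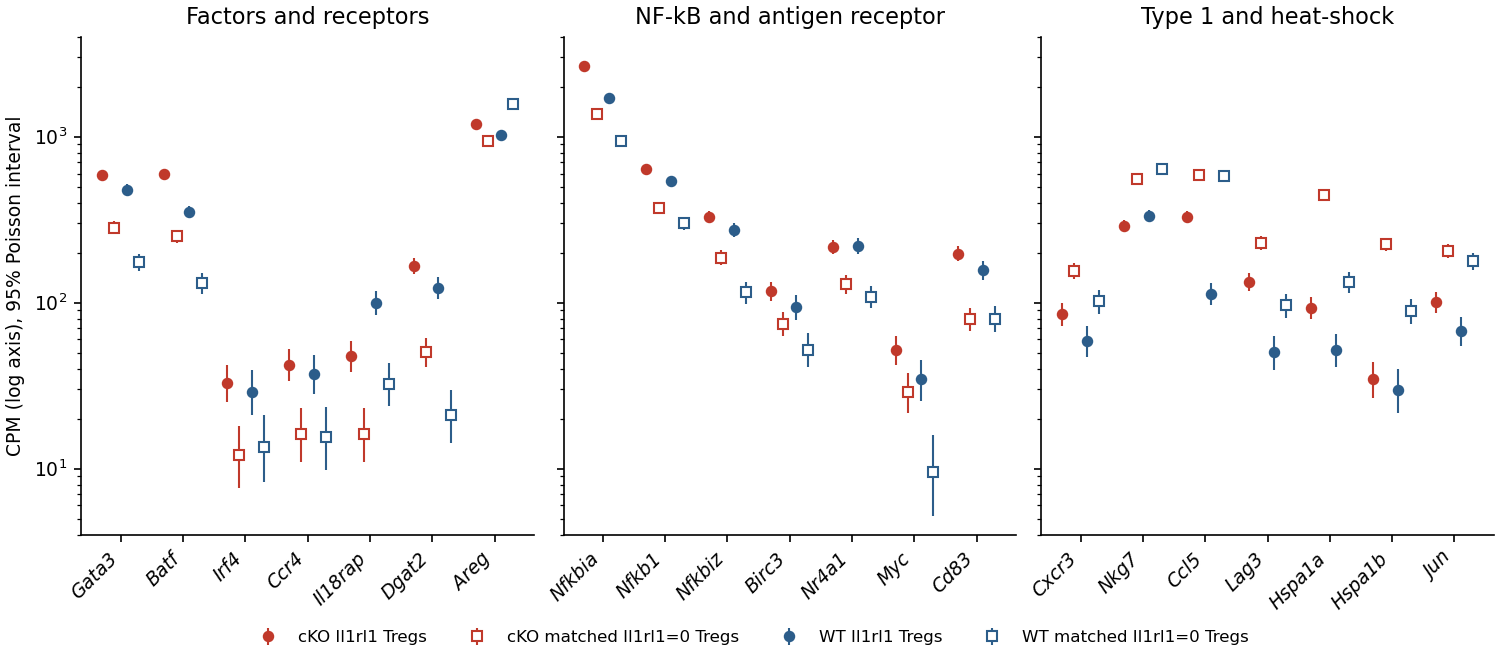
Summed levels in CPM (log axis) with exact Poisson intervals for 4 groups of cells: cKO Il1rl1 Tregs, cKO matched Tregs, WT Il1rl1 Tregs and WT matched Tregs. Gata3, Batf, Dgat2 and the NF-kB genes drawn lie higher in Il1rl1 than in matched Tregs of both libraries, the genes of the type 1 and heat-shock panel lie lower, and Areg is at 1018 CPM in WT Il1rl1 Tregs and 1566 CPM in WT matched Tregs.

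Il1rl1 lies on chromosome 1 between Il1r2, which encodes a decoy receptor of IL-1, and Il18r1 and Il18rap, which encode the chains of the IL-18 receptor. Il18rap was at 47.6 CPM in Il1rl1 Tregs and 16.2 CPM in matched Tregs in cKO, a ratio of 2.93 (1.93 to 4.56), and at 100.2 CPM in Il1rl1 Tregs and 32.5 CPM in matched Tregs in WT, a ratio of 3.08 (2.21 to 4.36). Its partner Il18r1 was at 151 and 148 CPM in cKO, a ratio of 1.02 (0.865 to 1.21), and at 203 and 125 CPM in WT, a ratio of 1.62 (1.35 to 1.96). Il1r2 was lower in cKO Il1rl1 Tregs, at 142 CPM against 205 CPM in matched Tregs (ratio 0.690, 0.589 to 0.808), and higher in WT ones, at 278 CPM against 158 CPM (ratio 1.76, 1.498 to 2.08). In WT, Il18rap, Il18r1 and Il1r2 were thus all past 1.5-fold higher. In cKO Il18rap was higher, the interval of Il18r1 held 1, and Il1r2 was lower. Il1r1 and Il1rl2, which lie between Il1r2 and Il1rl1, had at most 2 UMIs in any group of cells and could not be read.

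The downstream parts of the IL-33 pathway were mostly too low to measure. Of 15 listed genes only 5 reached 20 CPM, and 0 of them were past 1.5-fold in both libraries in either direction. Of all genes 1.39% were higher and 0.596% lower, so 0 of 5 does not set this list apart from all genes. Il1rap, the chain that ST2 needs for signalling, was at 4.18 CPM in cKO and 4.74 CPM in WT Il1rl1 Tregs, and Il33 had no UMI. Myd88 had ratios of 1.11 (0.824 to 1.504) in cKO and 1.39 (0.887 to 2.19) in WT, Irak1 of 1.48 in cKO and 0.765 in WT, and Irak2 of 0.862 in cKO and 0.534 in WT.

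Of the genes of NF-kB, the factor at the end of that pathway and of several others, Nfkbia, Nfkb1, Nfkbiz and Birc3 were higher in both libraries. They are 4 of 15 listed and measured genes, with 0 lower, beside 1.39% and 0.596% of all genes, and the log2 ratio was above 0 for 15 genes in cKO and 14 in WT, with medians of 0.47 and 0.46. Nfkbia, which encodes the inhibitor IkBalpha and is itself switched on by NF-kB, was at 2665 CPM in Il1rl1 Tregs and 1367 CPM in matched Tregs in cKO, and at 1704 and 943 CPM in WT. Nfkb1, the p50 subunit, had ratios of 1.71 in cKO and 1.81 in WT, and Nfkbiz, a nuclear IkB protein, of 1.75 and 2.38. Birc3, an inhibitor of apoptosis downstream of TNF receptors, had ratios of 1.58 and 1.80. Rel passed 1.5-fold in WT (2.04) and not in cKO (1.34), and Tnfaip3, which ends NF-kB signalling, was the gene below 0 in WT (ratio 0.919, against 1.22 in cKO). Ikbke, a kinase of the same family of signals, was at 48.1 CPM in Il1rl1 Tregs and 19.9 CPM in matched Tregs in cKO, and at 29.1 and 9.49 CPM in WT.

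Genes of antigen receptor and cytokine signals were higher in part. Of 11 measured antigen receptor response genes 2 were past 1.5-fold higher in both libraries and 0 lower, beside 1.39% and 0.596% of all genes. They were the nuclear receptor gene Nr4a1 (ratios 1.68 in cKO and 2.02 in WT) and Myc (1.80 and 3.64). In the same list Nr4a2 had ratios of 0.720 in cKO and 0.467 in WT. The Il2ra level was higher as well, at 938 CPM in Il1rl1 Tregs and 443 CPM in matched Tregs in cKO and at 877 and 502 CPM in WT, but Il2ra is 1 of the 4 genes summed in the gate. Of 11 measured IL-2 and STAT5 genes, Bcl2l1, which encodes the survival protein BCL-XL, passed in both (1.64 and 1.85), while Pim1 (1.46 and 1.503), Cish (1.36 and 1.44) and Stat5a (1.48 and 1.49) lay at or under the 1.5-fold limit on the scale used. Bcl2l11, which encodes the death-promoting protein BIM, was lower, at 26.7 CPM in Il1rl1 Tregs and 57.6 CPM in matched Tregs in cKO and at 12.9 and 33.9 CPM in WT.

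Among receptors and secreted factors, Ccr4, a chemokine receptor shared by skin-homing and type 2 T cells, was at 42.4 CPM in Il1rl1 Tregs and 16.2 CPM in matched Tregs in cKO (ratio 2.61, 1.70 to 4.08), and at 37.2 and 15.6 CPM in WT (ratio 2.39, 1.45 to 4.08). Of 10 listed type 2 genes 4 were measured, and Ccr4 alone was past 1.5-fold in both libraries, beside 1.39% of all genes higher. The type 2 cytokine genes were rare. Il13 was at 2.09 CPM in Il1rl1 Tregs and 0 in matched Tregs in cKO and at 13.5 and 2.03 CPM in WT, and Il5 at 0.523 and 0.524 CPM in cKO and at 10.8 and 0 CPM in WT. In WT Il1rl1 Tregs 3 cells held the Il13 UMIs, with 75% in 1 cell, and 6 cells held those of Il5. Ednrb, a receptor of endothelins, had ratios of 3.56 (1.94 to 6.98) in cKO and 5.80 (3.33 to 10.8) in WT, with UMIs in 29 of 256 cKO and 44 of 159 WT Il1rl1 Tregs. Tnfsf8, the CD30 ligand gene, had ratios of 1.92 in cKO and 2.59 in WT, and 44.2% of its UMIs in cKO Il1rl1 Tregs came from 1 cell. Cd83, a surface protein of activated Tregs, had ratios of 2.48 and 1.96, and Gadd45g, a stress-response gene, of 2.06 and 2.11. Against controls matched on detected genes in place of total UMIs, the WT log2 ratios of these 2 genes fell below the 1.5-fold limit, to 0.11 for Cd83 and 0.32 for Gadd45g.

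Hk2, Lpcat1 and Acod1, each an enzyme gene, were among the 12 highest and belong to no list used here. Hk2, the hexokinase that starts glycolysis in activated lymphocytes, was at 97.2 CPM in Il1rl1 Tregs and 47.7 CPM in matched Tregs in cKO and at 95.5 and 38.6 CPM in WT. Lpcat1, an enzyme that remodels phospholipids, was at 214 and 92.7 CPM in cKO and at 127 and 58.3 CPM in WT. Acod1, which makes itaconate in macrophages, had ratios of 2.19 (1.63 to 2.97) in cKO and 18.7 (7.02 to 70.6) in WT. The WT value rests on 4 UMIs in 2 matched cells, and 51 of 256 cKO and 28 of 159 WT Il1rl1 Tregs had an Acod1 UMI.

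The type 1 genes Ccl5, Cxcr3, Gzma and Nkg7 were lower in Il1rl1 Tregs of both libraries. They are 4 of 8 measured and 9 listed type 1 genes, with 0 higher, beside 0.596% and 1.39% of all genes. Of the 8, 3 had a log2 ratio above 0 in cKO and 1 in WT, with median log2 ratios of -0.44 in cKO and -0.83 in WT. Cxcr3, the receptor for interferon-induced chemokines, was at 85.2 CPM in Il1rl1 Tregs and 156 CPM in matched Tregs in cKO (ratio 0.548, 0.450 to 0.665) and at 58.9 and 102 CPM in WT (ratio 0.580, 0.440 to 0.760). Nkg7, a protein of cytotoxic granules, was at 289.6 and 557 CPM in cKO and at 333 and 636 CPM in WT. Ccl5, a chemokine of effector T cells, had ratios of 0.560 in cKO and 0.194 in WT, and 40.5% of its UMIs in cKO Il1rl1 Tregs came from 1 cell. Of Gzma, 94.96% of the UMIs in cKO matched Tregs came from 1 cell, so its ratio describes that cell. Gzmb, a cytotoxic gene outside the type 1 list, was at 3890.3 CPM in Il1rl1 Tregs and 3663 CPM in matched Tregs in cKO (ratio 1.06, 1.03 to 1.10) and at 471 and 342 CPM in WT (ratio 1.38, 1.22 to 1.55). Tbx21, the type 1 master regulator, was under the 20 CPM limit on average, at 11.5 and 23.1 CPM in cKO and at 9.48 and 21.0 CPM in WT.

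CD8 T cell markers were also lower in Il1rl1 Tregs. Of 3 markers outside the gate, 3 were detected in cKO and 2 in WT Il1rl1 Tregs (Gzmk was at 0 in WT), and they summed to 24.6 CPM in Il1rl1 Tregs and 80.2 CPM in matched Tregs in cKO and to 4.06 and 23.7 CPM in WT. Among cells with no UMI of Lyz2, C1qa, C1qb, Cd8a or Cd8b1, 1 type 1 gene was lower in both libraries in place of 4, and the log2 ratios of Nkg7 were -0.90 in cKO and -0.97 in WT. NK cell markers summed to 1.05 CPM in Il1rl1 Tregs and 11.002 CPM in matched Tregs in cKO and to 2.03 and 0.678 CPM in WT, and gamma-delta T cell markers to 2.09 and 44.5 CPM in cKO, the second from 3 cells, and to 7.45 and 17.6 CPM in WT. Klrc1, an inhibitory receptor of cytotoxic cells, had ratios of 0.297 and 0.425 over all cells.

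Inhibitory receptor and suppressive genes gave little. Lag3, which binds MHC class II, was the only member lower in both libraries, where 0.596% of all genes were, of 7 measured inhibitory receptors and of 11 measured suppressive mediators, at 134 CPM in Il1rl1 Tregs and 230.0 CPM in matched Tregs in cKO and at 50.1 and 96.2 CPM in WT. Pdcd1 (PD-1) had ratios of 0.742 in cKO and 0.690 in WT, Entpd1 (CD39) of 0.771 and 0.694, Fgl2 of 0.844 and 0.614 and Tgfb1 of 1.41 and 1.14. Ebi3, a subunit of IL-35, passed in cKO (1.77) and not in WT (1.11). No member of the costimulatory receptors (10 measured), of the quiescence and recirculation genes (10 measured) or of the interferon response genes (13 measured) was past 1.5-fold in both libraries. Of all genes 1.39% were higher and 0.596% lower. Tnfrsf4 (OX40), a costimulatory receptor, had ratios of 1.35 in cKO and 1.40 in WT.

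The other lists each had 1 to 3 members past 1.5-fold in both libraries, beside 1.39% higher and 0.596% lower of all genes. They were Il18rap among 3 measured receptors of the IL-1 family, Cd83 among 10 Treg core genes, Tnfsf8 among 8 secreted factors and Itgae among 12 residency and adhesion genes, with 0 lower in each. Of 8 measured chemokine receptors Ccr4 was higher and Cxcr3 lower. Of 10 measured BATF, IRF and AP-1 factors, Batf and Irf4 were higher and Jun lower, with median log2 ratios of 0.35 in cKO and -0.01 in WT, and with controls matched on detected genes the cKO median was -0.08. Junb (1.21 and 1.27), Jund (1.33 and 1.18) and Fosl2 (0.779 and 0.833) of that list did not pass. Atf3 of that list passed in cKO (log2 ratio 0.69) and lay just under the limit in WT (0.58).

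Heat-shock and early response genes that cell handling induces were lower in part. Of 12 listed genes 12 were measured, 3 were lower in both libraries (Hspa1a, Hspa1b and Jun) and 0 higher, beside 0.596% and 1.39% of all genes. Hspa1a was at 93.1 CPM in Il1rl1 Tregs and 446 CPM in matched Tregs in cKO and at 52.1 and 133 CPM in WT. Hspa1b, a near-identical copy whose reads may be shared with Hspa1a, was at 34.5 and 224 CPM in cKO and at 29.8 and 88.8 CPM in WT. After thinning, 7.30% of Il1rl1 Tregs and 12.0% of matched Tregs in cKO, and 1.91% and 8.92% in WT, had an Hspa1a UMI, against 26.2% of cKO and 15.6% of WT macrophages. Jun was at 100.4 and 205 CPM in cKO and at 67.0 and 178 CPM in WT. Hspa8 (1.08 and 0.997), Dnajb1 (0.786 and 0.825) and Fos (0.874 and 0.692) of the same list did not pass in both. Atf3 went the other way, with log2 ratios of 0.69 in cKO, past the limit, and 0.58 in WT, just under it. It was at 15.7 CPM in Il1rl1 Tregs and 7.86 CPM in matched Tregs in cKO and at 37.9 and 23.7 CPM in WT. Of the 12 genes, 5 had a log2 ratio above 0 in cKO and 2 in WT. The list's median log2 ratios were -0.10 in cKO and -0.18 in WT.

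The lowest genes of all rested on few cells. Spp1, which encodes osteopontin, was at 3.14 CPM in Il1rl1 Tregs and 26.2 CPM in matched Tregs in cKO and at 17.6 and 183 CPM in WT, and single cells gave 44.0% and 50.7% of the UMIs in cKO and WT matched Tregs. Among cells with no UMI of the myeloid and CD8 genes, the cKO log2 ratio of Spp1 was -0.52, against -1.94 over all cells. Ifitm1 was at 107 and 392.4 CPM in cKO and at 2.71 and 311 CPM in WT, and 1 cell gave 91.3% of its UMIs in WT matched Tregs. Macrophage markers outside the gate summed to 27.7 CPM in Il1rl1 Tregs and 27.2 CPM in matched Tregs in cKO and to 7.45 and 13.6 CPM in WT.

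Levels were read across the number of Il1rl1 UMIs in the cell, from 0 (matched Tregs) over 1, 2 and 3 to 4 to 5 or more. Gata3 was at 283, 401, 580.3, 579.8 and 606 CPM in cKO and at 175, 378, 449.9, 409 and 597 CPM in WT. Batf was at 251, 406, 596, 595 and 595 CPM in cKO and at 131, 235, 270.4, 279 and 527 CPM in WT. In both libraries cells with 1 Il1rl1 UMI lay between those with 0 and those with 5 or more for these 2 genes. From 2 UMIs up the cKO levels of both genes differed by less than their counting intervals, while in WT both were highest at 5 or more. Captured UMIs are a sample of a cell's RNA, so these levels do not tell a range from separate classes mixed by sampling. Dgat2 was at 50.3, 91.7, 148, 189 and 158 CPM in cKO and at 21.0, 106, 117, 105 and 151 CPM in WT. Nfkbia was at 1367, 2326, 2589, 2881 and 2529.6 CPM in cKO and at 943, 1249, 1851, 1479 and 1857 CPM in WT. Areg had no such order, at 947, 1319, 1225, 1454 and 948 CPM in cKO and at 1566, 952, 1070.0, 1091 and 874 CPM in WT. Cells with more UMIs in all can show more Il1rl1 UMIs, and the medians of the 5 classes ran from 5666.5 to 7016 UMIs in cKO and from 7174 to 8559 in WT.

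**Figure D4:**
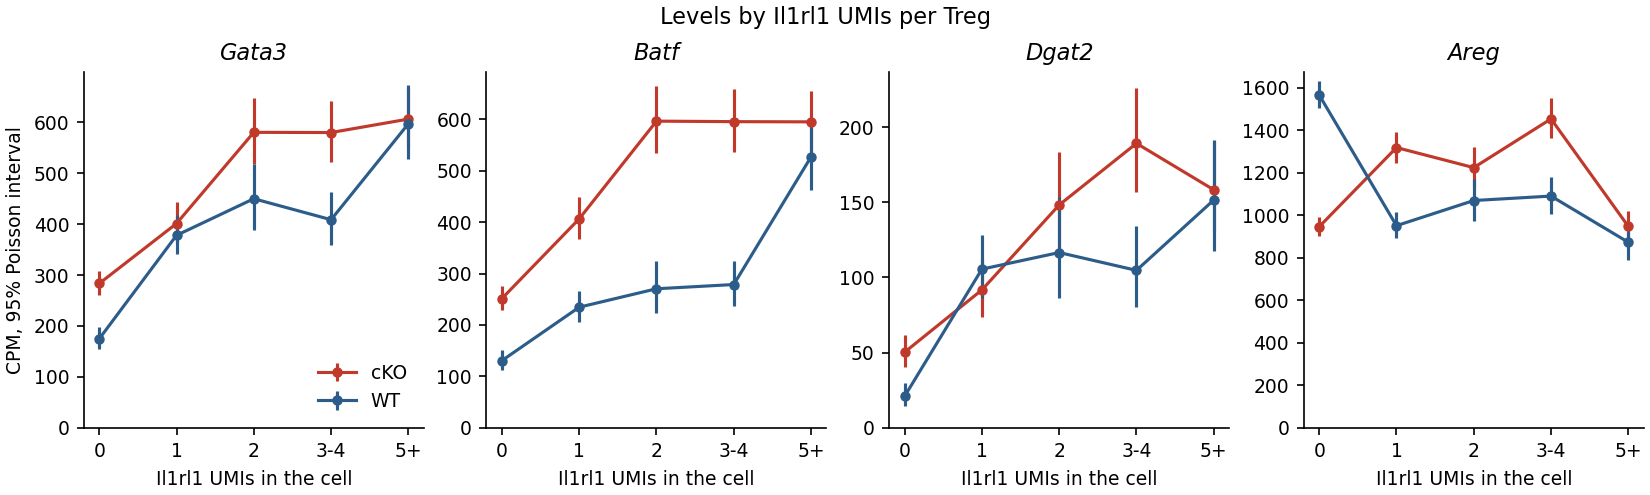
Summed level (CPM with exact Poisson intervals, each vertical axis from 0) of Gata3, Batf, Dgat2 and Areg in cKO and WT Tregs by the number of Il1rl1 UMIs in the cell, with matched Tregs at 0. Gata3, Batf and Dgat2 are lowest at 0 UMIs in both libraries, and Areg in WT is highest there.

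Set against each other, cKO and WT Il1rl1 Tregs differed by at least 2-fold in 92 genes higher in cKO (1.83% of 5030) and 98 lower (1.95%), with a median log2 ratio of 0.04. In matched Tregs the counts were 76 (1.51%) and 90 (1.79%). Of these, 44 of the 92 higher and 54 of the 98 lower genes were past 2-fold in the same direction in the matched Tregs too. The 8 highest in Il1rl1 Tregs were Il1b, Ifitm1, Ccl4, H2-Aa, Gzmb, Tyrobp, Mmp9 and H2-Eb1, and the 8 lowest Tff1, Itga4, Sema6d, Igfbp7, Rgs2, Tnfsf8, Calca and Jcad.

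Gzmb, the cytotoxic protease granzyme B that tumour Tregs can use against other cells, differed between the libraries in its summed level and in how many cells held it. It was at 3890.3 CPM in cKO and 471 CPM in WT Il1rl1 Tregs, a ratio of 8.27 (7.65 to 8.95), and at 3663 CPM in cKO and 342 CPM in WT matched Tregs. The median cell had 21.0 Gzmb UMIs per 10000 in cKO and 0 in WT Il1rl1 Tregs, and 216 of 256 cKO and 56 of 159 WT cells had at least 1. Mmp9, a gelatinase gene, was at 37.6 CPM in cKO and 1.35 CPM in WT Il1rl1 Tregs. Its WT value is 2 UMIs, so the ratio has a wide interval. In cKO over WT Il1rl1 Tregs, the ratio was 1.23 (1.12 to 1.36) for Gata3 and 1.18 (1.10 to 1.26) for Areg. It was 1.69 (1.52 to 1.88) for Batf and 1.56 (1.49 to 1.64) for Nfkbia. In matched Tregs the cKO over WT ratio was 1.62 (1.40 to 1.89) for Gata3, 1.92 (1.62 to 2.28) for Batf and 0.604 (0.568 to 0.643) for Areg. Nfkbia was at 1367 CPM in cKO and 943 CPM in WT matched Tregs.

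For antigen presentation and myeloid genes at the top of that order, a large part of the UMIs came from single cells. In cKO Il1rl1 Tregs 1 cell gave 40.2% of the H2-Aa UMIs, 41.6% of H2-Eb1, 35.5% of Il1b, 44.2% of Ccl4, 62.9% of Ifitm1 and 34.6% of Tyrobp. Without the highest 5% of cells by total UMIs in each library, the log2 ratios were 1.04 for H2-Aa, 0.31 for H2-Eb1 and 1.54 for Tyrobp, against 3.18, 2.57 and 2.86 with them. Single cells also gave 73.5% of the H2-Aa and 67.5% of the H2-Eb1 UMIs in WT matched Tregs. Within the cKO library, H2-Aa was at 366 CPM in Il1rl1 Tregs and 399 CPM in matched Tregs, and H2-Eb1 at 362 and 361 CPM. The 7 dendritic cell markers summed to 51.2 CPM in Il1rl1 Tregs and 30.9 CPM in matched Tregs in cKO, and to 45.4 and 108 CPM in WT. Ccl22 and Fscn1 had 23 and 16 UMIs in cKO Il1rl1 Tregs, and 62 each in WT matched Tregs. They had 0 and 1 in cKO matched Tregs and 3 and 0 in WT Il1rl1 Tregs. Zbtb46 was higher in Il1rl1 Tregs of both libraries, while Itgax in cKO had 3 UMIs in them and 24 in matched Tregs. The part of cells of another type in these values was not tested.

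The 8 genes lowest in cKO Il1rl1 Tregs were lower in cKO matched Tregs too. Itga4, the alpha chain of the integrin VLA-4, was at 27.2 CPM in cKO and 234 CPM in WT Il1rl1 Tregs, and its log2 ratio was -2.89 there and -2.28 in matched Tregs. Rgs2, a brake on G protein signals, was at 159.5 and 709 CPM, with log2 ratios of -2.12 and -1.85. Tff1, a secreted peptide of mucous epithelium, was at 6.80 and 124 CPM (-3.45 and -3.29), and Sema6d at 2.61 and 40.6 CPM (-2.58 and -2.53). Igfbp7 was at 3.66 and 35.9 CPM (-2.24 and -3.01), and Jcad at 4.18 and 30.5 CPM (-1.95 and -1.70). Tnfsf8 was at 27.2 and 128 CPM (-2.05 and -1.51). Calca, the gene of calcitonin and its related peptide, was at 29.8 and 137 CPM (-2.03 and -1.34).

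**Figure D5:**
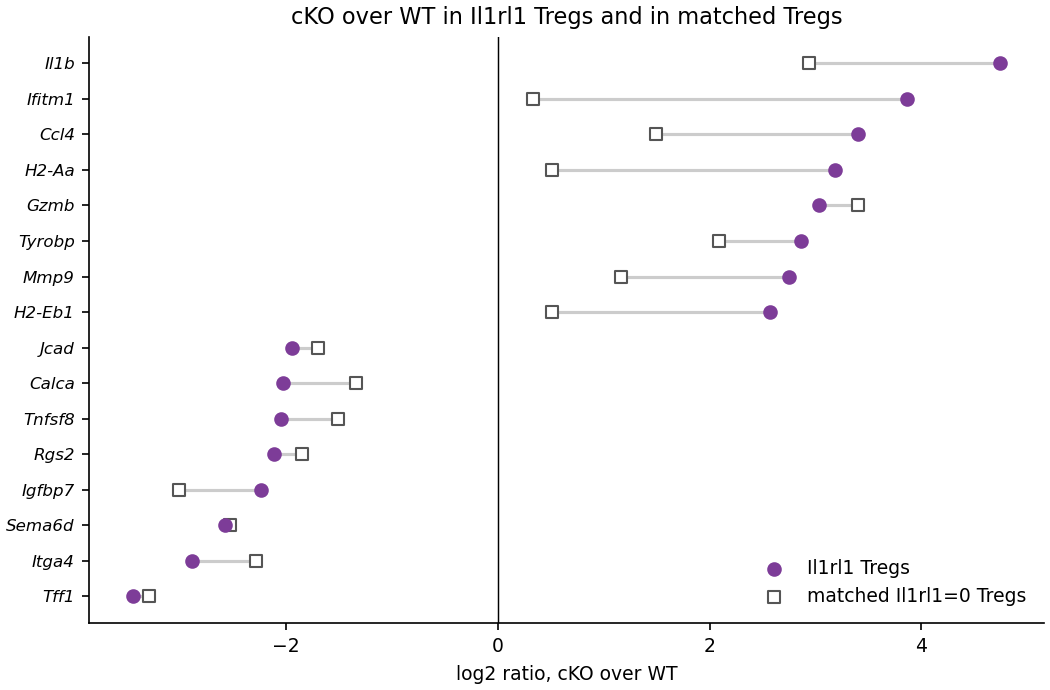
Log2 ratio of cKO over WT (horizontal axis) for the 8 highest and 8 lowest genes in Il1rl1 Tregs (filled circles), with the same ratio in matched Tregs (open squares). The lowest genes and Gzmb have similar positions in both groups of cells, while Ifitm1, H2-Aa and H2-Eb1 are at 3.86, 3.18 and 2.57 in Il1rl1 Tregs and at 0.33, 0.51 and 0.51 in matched Tregs. In WT matched Tregs 1 cell gave 91.3% of the Ifitm1 UMIs, and single cells gave 73.5% of H2-Aa and 67.5% of H2-Eb1.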

How the data were processed

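The deposited matrices hold raw UMI counts for each gene and barcode. Cell Ranger 5.0.1 and the build mm10 are named in the submitters' processing notes. Which annotation was used, whether intronic reads were counted and whether cells or doublets were removed before deposit is not stated there. No doublet caller was run here. Gene IDs were located with GENCODE M21, and promoters came from RefSeq on GRCm38.p6. Il1rl1 Tregs were matched to Il1rl1=0 Tregs of their own library without replacement on total UMIs, 1 control for each member, with a largest gap of 4.33% in cKO and 2.87% in WT. UMIs were summed over cells to CPM, and ratios were log2 with 5 CPM added. Levels have exact Poisson, shares Clopper-Pearson and ratios exact conditional binomial intervals without the added 5 CPM (95%, counting error only). For shares, cells were thinned to 4000 UMIs with a fixed seed of 14, which left out 23 of 256 cKO and 2 of 159 WT Il1rl1 Tregs. Macrophages had at least 20 UMIs of Lyz2, C1qa and C1qb and no UMI of Cd3d, Cd3e or Cd3g. Their medians were 12998 and 14844 UMIs before thinning in cKO and WT. CD8 T cells had at least 3 UMIs of Cd8a and Cd8b1 and at least 2 of Cd3d, Cd3e and Cd3g. No limit was set there on Treg or myeloid genes.

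The members and the 21 gene lists were chosen with earlier results of these data known. Named genes are the 4 markers, the 12 highest and 12 lowest genes by the smaller of the 2 libraries' ratios in one direction, the 8 highest and 8 lowest of cKO over WT, and up to 4 members of each list. Genes of the selection rule, T cell receptor and immunoglobulin segments, mitochondrial and ribosomal protein genes, unnamed gene models, Xist, Tsix and Y-linked genes were outside the rankings. Other genes are named from the lists to show members that did not pass, after their values were seen. Alternatives changed the Il1rl1 threshold, the exclusion of Il10 and Ccr8 cells, the matching, the filter on low values, the pseudocount and the scaling, or left out the deepest cells or those with myeloid or CD8 UMIs. The calculation was tested on simulated data. Python 3.11.15, numpy 2.4.6, scipy 1.17.1, pandas 2.3.3 and matplotlib 3.10.9 were used.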

Additional observations from a re-analysis of the deposited data

Results flagged for a closer look

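For 4 of the named genes the ratio of Il1rl1 Tregs over matched Tregs pointed one way in the cKO library and the other way in the WT library. The log2 ratio of Areg was 0.34 in cKO and -0.62 in WT. That of Il1r2 was -0.52 in cKO and 0.80 in WT. Those of Ccl4 were 0.83 and -1.08 and those of Il1b 0.61 and -1.20, in genes where 1 cell gave 44.2% and 35.5% of the UMIs of cKO Il1rl1 Tregs. With 1 library for each genotype the difference between the libraries was not tested for any of them.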

How the results depend on the processing

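Across the alternatives, 620 of 694 values of single named genes moved by at most the middle-to-end length of their log2 counting interval. The other 74 moved further, and 0 changed sign. Changes of the filter on low values leave a gene's ratio as it is, so their values are among the 620 by construction. For the marker genes, the WT log2 ratio of Areg was -0.22 among cells with no Lyz2, C1qa, C1qb, Cd8a or Cd8b1 UMI, -0.47 against every Il1rl1=0 cell and -0.26 with matching on detected genes, and the cKO one was 0.69 with at least 3 Il1rl1 UMIs and 0.48 with matching on detected genes. Batf in cKO was at 0.95 among cells with no such UMI, and Gata3 in WT at 1.07 without matching and 0.92 with matching on detected genes. The 30 genes lower in both libraries became 46 with at least 3 Il1rl1 UMIs, 54 without matching, 50 with matching on detected genes, 49 with a pseudocount of 1 CPM, 13 at a mean of 50 CPM and 113 with no filter. With 1 library left out the counts were 125 and 191 higher and 111 and 217 lower. Genes at least 2-fold higher in cKO over WT numbered 55 at a mean of 50 CPM and 184 with no filter, and lower ones 55 and 185. The share of Il1rl1 Tregs among gated Tregs was 13.99% in cKO and 8.11% in WT with at least 1 UMI, 6.03% and 3.52% with at least 3, and 3.85% in WT after thinning. Leaving out the cell with most UMIs of each gene, a setting chosen after seeing the data, gave 68 higher and 35 lower genes in both libraries, and 98 higher and 85 lower in cKO over WT. Apart from what a stricter or absent filter on low values does to the number of genes, the cause was not tested. No paired analysis was possible because each genotype has 1 library and the labels give no replicate numbers. Depth limits genes under 20 CPM, such as Il1rap, Il5 and Il13, of which a group of cells held few UMIs.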

Other observations

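Further genes past 1.5-fold higher in Il1rl1 Tregs of both libraries are given here, chosen after their values were seen. They belong to no group that was tested. Gadd45b, a stress-response gene, was at 1172 CPM in Il1rl1 Tregs and 595 CPM in matched Tregs in cKO and at 827 and 436 CPM in WT. Bcl2a1d, of the BCL-2 family of survival genes, had ratios of 1.54 (1.40 to 1.70) in cKO and 1.81 (1.63 to 2.02) in WT, and Fas, a death receptor, of 1.72 (1.44 to 2.05) and 1.69 (1.27 to 2.27). The metallothionein genes Mt1 and Mt2, which encode metal-binding proteins, had ratios of 1.55 and 1.72 in cKO and of 1.59 and 2.998 in WT.

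Hopx, Kdm6b, Dot1l, Icam1, Il15ra and Furin were also among them. Hopx, a homeodomain protein gene of Tregs and memory T cells, was at 2137 CPM in Il1rl1 Tregs and 935 CPM in matched Tregs in cKO and at 1039 and 604 CPM in WT. Kdm6b, a histone H3 demethylase, had ratios of 1.77 (1.56 to 1.997) in cKO and 2.31 (1.94 to 2.76) in WT, and Dot1l, a histone H3 methyltransferase, of 3.14 (2.25 to 4.46) and 1.75 (1.23 to 2.51). Icam1, an adhesion molecule, was at 278 CPM in Il1rl1 Tregs and 160.3 CPM in matched Tregs in cKO and at 156 and 98.9 CPM in WT. Il15ra, which presents IL-15, had ratios of 1.96 in cKO and 3.55 in WT, and Furin, a protease that matures TGF-beta, of 1.52 and 2.54.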
